A study of Mus musculus with 16 samples.

Results

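The comparison sets NUP98-HOXD13/Flt3-ITD progenitors against NUP98-HOXD13 progenitors, so that both groups carry the fusion gene and differ by Flt3-ITD. ATAC-seq, which lets a transposase insert adapters into open DNA, gave the accessibility of chromatin. The cells were haematopoietic progenitors (named MPP, multipotent progenitors, in the labels) of mice aged 21 days, with 2 samples for each of the 2 groups, 4 of the 16 samples of the series. The authors deposited 1 peak list per group, with no value per sample, so no spread between samples and no p-value between genotypes can be given. The labels give neither the promoter or cell type that drives the fusion nor the zygosity of the duplication, and do not state whether animals were pooled. Overlapping peaks of the 2 lists on chromosomes 1 to 19 were merged into 89307 regions, out of 118981 regions when all 8 lists of the series are merged. The NUP98-HOXD13/Flt3-ITD list held 125898 peaks and the NUP98-HOXD13 list 121831 on these chromosomes, and read depth was unknown.

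Flt3 is a receptor tyrosine kinase of early progenitors, and its internal tandem duplication keeps the receptor signalling without ligand. The signal reaches STAT5, which activates genes such as the SOCS feedback inhibitors, and the RAS, MAPK and PI3K pathways. NUP98-HOXD13 joins part of a nuclear pore protein to a HOX homeodomain, keeps HOX cluster genes active in progenitors and is found together with Flt3 mutations in myeloid leukaemia.

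The promoters below are examples of the kinds of difference between the lists, picked after their values were seen. They are the 250 bases before a gene start, from RefSeq on GRCm38.p6, read 5′ to 3′ on the gene's strand. Capitals mark matches on either strand to the STAT letters TTCNNNGAA, the ETS letters CCGGAA, the IRF letters (GAAA, any 2 bases, GAAA) and the CEBP letters TTGCNNAA. The examples do not show how common a match is. STAT letters were in 7.93% of promoters under regions higher in NUP98-HOXD13/Flt3-ITD and 8.62% under regions found only there. Over all gene starts the share was 7.06%. The first lies under a peak that ranked higher in NUP98-HOXD13/Flt3-ITD, at Socs3 (chr11:117969367-117969616, minus strand), with 1 STAT match.
Socs3: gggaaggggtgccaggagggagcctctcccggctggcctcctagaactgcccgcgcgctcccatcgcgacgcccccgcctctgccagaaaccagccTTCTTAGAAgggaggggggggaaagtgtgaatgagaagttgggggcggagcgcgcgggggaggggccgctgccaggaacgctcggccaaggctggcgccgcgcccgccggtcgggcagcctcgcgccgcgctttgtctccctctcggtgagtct
The next are under peaks found only in NUP98-HOXD13/Flt3-ITD, at 1 of the starts of Bcl6 (chr16:23981284-23981533, minus strand) and at Oas1a (chr5:120907526-120907775, minus strand). Bcl6 has 3 STAT matches, 1 of which overlaps an ETS match. Oas1a has 1 STAT match and 2 overlapping IRF matches.
Bcl6: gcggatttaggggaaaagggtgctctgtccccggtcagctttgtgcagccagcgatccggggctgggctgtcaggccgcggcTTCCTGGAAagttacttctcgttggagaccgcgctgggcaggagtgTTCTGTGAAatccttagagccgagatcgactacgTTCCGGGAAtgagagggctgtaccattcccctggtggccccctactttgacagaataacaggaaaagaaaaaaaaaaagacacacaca
Oas1a: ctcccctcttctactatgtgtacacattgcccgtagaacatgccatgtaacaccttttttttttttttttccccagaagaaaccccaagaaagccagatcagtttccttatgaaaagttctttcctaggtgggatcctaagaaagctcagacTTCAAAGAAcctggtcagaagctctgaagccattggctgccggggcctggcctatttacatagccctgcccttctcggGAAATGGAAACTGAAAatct
On the other side are Daxx (chr17:33909248-33909497, plus strand) and Ndn (chr7:62348027-62348276, plus strand), under peaks found only in NUP98-HOXD13, and Dnmt3a (chr12:3891494-3891743, plus strand), under a peak that ranked lower in NUP98-HOXD13/Flt3-ITD. Daxx shows 2 ETS matches and 1 CEBP match in this window, Ndn 1 CEBP match and Dnmt3a no match to the letters searched.
Daxx: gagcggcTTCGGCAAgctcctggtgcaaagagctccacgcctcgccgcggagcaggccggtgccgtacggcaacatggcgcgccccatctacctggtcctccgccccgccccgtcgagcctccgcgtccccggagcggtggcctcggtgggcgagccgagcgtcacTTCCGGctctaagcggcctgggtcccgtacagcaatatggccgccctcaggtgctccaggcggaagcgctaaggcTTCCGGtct
Ndn: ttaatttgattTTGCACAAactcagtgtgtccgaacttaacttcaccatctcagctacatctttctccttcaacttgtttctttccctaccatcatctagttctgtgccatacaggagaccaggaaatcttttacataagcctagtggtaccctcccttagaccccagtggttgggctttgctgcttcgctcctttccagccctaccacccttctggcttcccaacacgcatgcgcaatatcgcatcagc
Dnmt3a: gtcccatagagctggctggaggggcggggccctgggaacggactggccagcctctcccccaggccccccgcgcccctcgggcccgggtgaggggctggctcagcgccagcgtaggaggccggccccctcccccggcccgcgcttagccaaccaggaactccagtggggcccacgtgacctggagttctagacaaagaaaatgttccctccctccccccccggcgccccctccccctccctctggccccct

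Most open regions were common to the 2 genotypes. Of the 89307 regions, 62187 (69.6%) held peaks of both lists. A peak of NUP98-HOXD13/Flt3-ITD alone was found in 12249 regions (13.7% of all) and a peak of NUP98-HOXD13 alone in 14871 (16.7%). With the same number of peaks from each list, the 121831 with the highest −log10 p (the authors' p-value for a peak against its local background), these counts were 12049 (13.5%) and 14876 (16.7%). Flt3 itself did not separate the lists by presence: its 7 regions were all shared, with a promoter −log10 p of 496.9 in NUP98-HOXD13/Flt3-ITD and 456.3 in NUP98-HOXD13. One region inside Flt3 had 13.1 and 32.9. The Nup98 promoter had 497.1 and 650.1, and the single region near Hoxd13 27.0 and 41.5, and peaks at these genes read neither a duplication nor a fusion.

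Single-list regions were mostly weak peaks. In the NUP98-HOXD13/Flt3-ITD list, 66.0% of the regions in the lowest decile of −log10 p had no peak in the other list, and in the NUP98-HOXD13 list 71.6%. In the highest decile these were 0 of 7444 regions and 1 of 7706 regions. The median −log10 p was 14.6 in regions found only in NUP98-HOXD13/Flt3-ITD and 12.7 in those found only in NUP98-HOXD13. Shared regions had 53.0 and 50.8. Only 53 regions (0.0593%) found in NUP98-HOXD13/Flt3-ITD alone had a peak in the strongest 25% of its list, and 59 (0.0661%) of those in NUP98-HOXD13 alone. The lists also differed in how they cut regions: 43.8% of the NUP98-HOXD13/Flt3-ITD regions held several peaks and 37.3% of the NUP98-HOXD13 regions, with median widths of 587 and 532 bp.

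**Figure D1:**
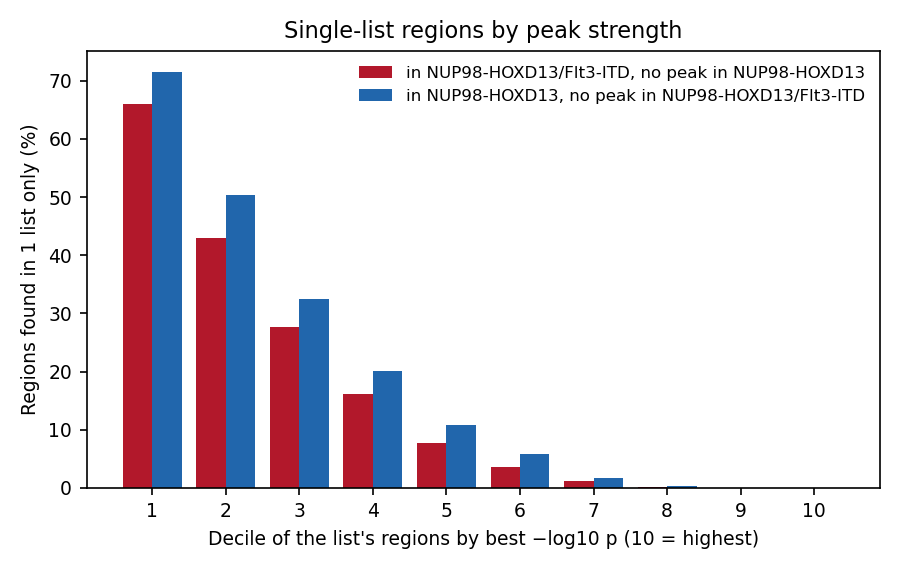
Bars give the percentage of regions of each list with no peak in the other list, by decile of the best −log10 p within the list (10 is the highest); red is NUP98-HOXD13/Flt3-ITD and blue NUP98-HOXD13. The share is highest in decile 1, at 66.0% and 71.6%, and near 0 from decile 8 on.

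The strongest region found only in NUP98-HOXD13/Flt3-ITD lay inside Vps13d, which encodes a protein of lipid transfer and mitochondrial turnover (chromosome 4, 144995692 to 144996450, −log10 p 178.5). It was followed by regions inside Ncam2, a neural adhesion molecule (131.7), and Tfcp2l1, a transcription factor of pluripotent cells (107.3), and near the RNase P subunit gene Rpp25 (94.8). A region inside Ccr2, the chemokine receptor of inflammatory monocytes, had 76.9. The Vps13d and Ccr2 regions were present in all 6 lists not compared here and missing from NUP98-HOXD13. The Ncam2, Tfcp2l1 and Rpp25 regions were each present in 5 of these 6 lists. In pairs without the fusion the direction varied, on the percentile ranks described below. The Ncam2 region ranked higher with Flt3-ITD by 52.0 points in set 2 and 35.0 beside Runx1-het, while the Vps13d region shifted by −10.4 points in set 2, 2.57 beside Runx1-het and −1.64 in set 1. The Tfcp2l1 region had 0.769 in set 2 and −10.4 in set 1, and the Ccr2 region −10.9 in set 2, 13.9 beside Runx1-het and −15.4 in set 1. The Rpp25 region had 39.3 beside Runx1-het and 58.3 in set 1. Also among the 10 strongest, regions near Cp had 49.0, 57.4 and 58.0 in set 2, beside Runx1-het and in set 1. In the same order, one inside Ston2 had 37.2, 19.9 and 15.1, and one near Spesp1 −18.6, −4.89 and −7.06.

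The strongest region found only in NUP98-HOXD13 covered the promoter of Daxx, which encodes a histone H3.3 chaperone (chromosome 17, 33908657 to 33909792, −log10 p 349.5). No peak of NUP98-HOXD13/Flt3-ITD lay within 500 bp of it, and each of the other 6 lists held it. Whether the calling or filtering of peaks removed it was not tested. Next came regions inside Lrrc28 (118.1), near Poteg (98.6) and inside the mannose receptor gene Mrc1 (97.7). The Mrc1 region was in all 6 lists not compared here, and the Lrrc28 region in 5 of them. The promoter of Ndn, an imprinted gene that restrains stem cell proliferation, had a peak of 46.1 in NUP98-HOXD13 alone.

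Presence in the 6 lists not compared here did not divide with Flt3-ITD in one direction. Of the regions found only in NUP98-HOXD13/Flt3-ITD, 50.2% were present in set 1 Flt3-ITD/Runx1-het and 49.98% in set 1 Runx1-het, 47.5% in set 1 Flt3-ITD and 38.6% in set 1 wild type, and 22.4% in set 2 Flt3-ITD and 52.9% in set 2 wild type. For the regions found only in NUP98-HOXD13 these shares were 42.8% and 48.6%, 43.1% and 37.7%, and 21.6% and 55.6%, in the same order of lists. All 89307 regions were present at 76.03% and 78.6%, 75.9% and 71.7%, and 57.9% and 81.5%. None of the other 6 lists held 20.6% of the regions found only in NUP98-HOXD13/Flt3-ITD and 23.9% of those found only in NUP98-HOXD13. Of the 53 strong ones with the duplication, 48 were present in set 1 Flt3-ITD/Runx1-het, 46 in set 1 Runx1-het, 48 in set 1 Flt3-ITD, 37 in set 1 wild type, 35 in set 2 Flt3-ITD and 43 in set 2 wild type. Of the 59 strong ones in NUP98-HOXD13 alone, these lists held 49, 52, 51, 51, 38 and 54. Set 2 Flt3-ITD was the shortest list, with 81961 peaks, and its lower shares were not corrected for that.

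To compare the shared regions, each was given a percentile rank from 0 to 100 by its best −log10 p among the 62187 in each list, and the shift is the rank in NUP98-HOXD13/Flt3-ITD minus that in NUP98-HOXD13. The median absolute shift was 6.57 points. A shift of 25 points or more was found upward in 2025 regions (3.26%) and downward in 2241 (3.6%). Equal numbers of peaks gave 2025 (3.26%) and 2242 (3.61%). For scale, set 2 wild type against set 1 wild type had 3.73% of shared regions up and 2.84% down, so lists of one genotype from the 2 sets differed by a like amount. That pair also holds any difference between the sets.

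**Figure D2:**
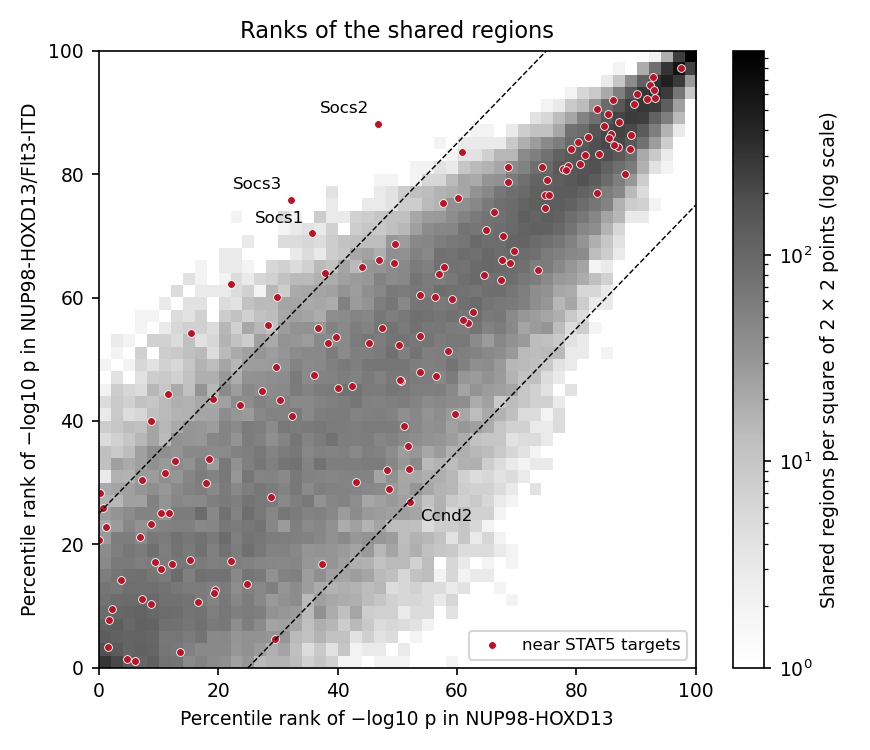
The percentile rank of each shared region in NUP98-HOXD13/Flt3-ITD (vertical) is plotted against its rank in NUP98-HOXD13 (horizontal); grey squares of 2 by 2 points count regions on a log scale, dashed lines mark a shift of 25 points and red points are the 134 shared regions near STAT5 targets. Of the red points, 12 lie above the upper line, led by Socs3 and Socs2, and 1 below the lower line, at Ccnd2.

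The largest shifts were picked among regions with the same sign by fold enrichment and a peak in the strongest 50% of the list where they ranked higher. Of these, the regions that ranked much higher in NUP98-HOXD13/Flt3-ITD were led by one inside Specc1, which encodes a cytoskeletal coiled-coil protein (chromosome 11, 62148275 to 62149042). Its −log10 p was 143.8 in NUP98-HOXD13/Flt3-ITD and 7.03 in NUP98-HOXD13, a shift of 80.2 points. The same region ranked higher by 62.7 points in set 2 Flt3-ITD than in set 2 wild type, by 55.3 points in set 1 Flt3-ITD than in set 1 wild type and by 20.4 points in set 1 Flt3-ITD/Runx1-het than in set 1 Runx1-het. A region next to the odorant receptor gene Olfr1258 (chromosome 2, 89920763 to 89921830) had 218.4 in NUP98-HOXD13/Flt3-ITD and 30.5 in NUP98-HOXD13, a shift of 58.5 points. It was also higher with Flt3-ITD in set 2 (79.2 points) and set 1 (57.3 points). A region inside Cradd, an adaptor of caspase signalling, had 75.8 and 11.2, a shift of 59.0 points. It is 1 of 4 regions past the threshold at Cradd, which had 10 regions in NUP98-HOXD13/Flt3-ITD alone and 0 in NUP98-HOXD13 alone. The span of Cradd (chromosome 10, 95174739 to 95324138) lies close to that of Socs2 (95383903 to 95417321), described below. Regions were given to the nearest span only.

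The regions that ranked much lower in NUP98-HOXD13/Flt3-ITD, picked in the same way, were led by one near Smc2, which encodes a condensin subunit (chromosome 4, 52429437 to 52430077). Its −log10 p was 17.9 in NUP98-HOXD13/Flt3-ITD and 102.1 in NUP98-HOXD13, a shift of −62.5 points. The region was also lower with Flt3-ITD beside Runx1-het (−64.0 points) and in set 2 (−26.1 points), and shifted by −0.502 points in set 1. Next was a region inside Lrrtm4, a synaptic adhesion protein (17.0 and 94.6), and further ones lay inside Ryr3, a calcium release channel (8.03 and 65.2), Cntn3 (17.9 and 86.6) and Cntnap2 (18.7 and 85.1). At the promoter of Dnmt3a (chromosome 12, 3890969 to 3892314), which encodes a DNA methyltransferase often mutated in myeloid leukaemia, the values were 11.03 and 68.1, a shift of −58.3 points. By fold enrichment over background this region shifted by −28.7 points, and in the pairs without the fusion it shifted by −24.4 (set 2), −22.5 (set 1) and −1.23 points (beside Runx1-het).

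Genes with several shifted regions were chosen after their values were seen. Abr, Atxn1, Entpd1, Gas7, Cradd, Pip4k2a and Pde7b each had 4 regions higher in NUP98-HOXD13/Flt3-ITD and 0 lower. Among the genes with the most lower regions, Thsd7b had 6 of its 9 shared regions lower (median −29.2 points) and 11 regions in NUP98-HOXD13 alone. Nrxn3, a presynaptic adhesion protein, had 6 of 22 lower, Gpc5, a glypican, 7 lower and 1 higher of 29, and the axon guidance receptor gene Robo2 5 of 17. Spans were read for some of these genes only. They came to 946 kb for Thsd7b, 1612 kb for Nrxn3, 1433 kb for Gpc5 and 1555 kb for Robo2. Of the genes with 4 higher regions, Atxn1 spans 415 kb, Abr 207 kb and Cradd 149 kb. In all, 29 genes had 3 or more regions higher and 58 had 3 or more lower, while 1650 and 1564 had at least 1.

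Regions ranked higher and lower differed in where they lay. More than 100 kb from any protein-coding gene were 6.22% of the regions ranked higher in NUP98-HOXD13/Flt3-ITD and 16.1% of those ranked lower, against 6.91% of all shared regions. Among single-list regions these were 8.01% for NUP98-HOXD13/Flt3-ITD and 13.9% for NUP98-HOXD13. The nearest gene had a median span of 48.2 kb for the higher and 87.8 kb for the lower regions, beside 49.3 kb for all shared regions. By chromosome the median shift was highest on the gene-rich chromosomes 11 (2.72 points) and 19 (2.21 points) and lowest on chromosome 3 (−1.19 points). Its Spearman correlation with gene density was 0.568 over the 19 chromosomes, which share the same 2 lists. The part of the libraries' base composition in this pattern was not tested, since no reads were used. Promoters split evenly into low, middle and high GC content had median shifts of −0.0285, 0.199 and 0.297 points.

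**Figure D3:**
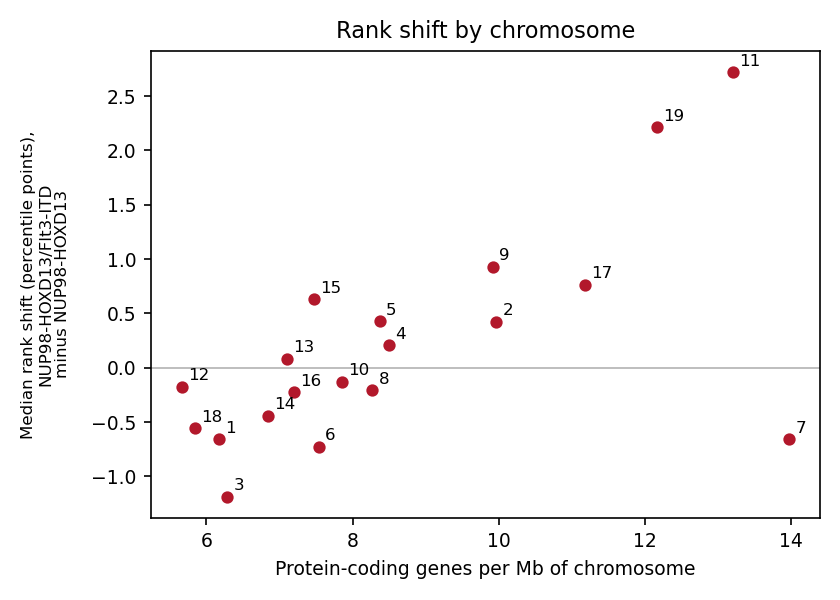
Each point is 1 of the 19 chromosomes, with protein-coding genes per Mb on the horizontal axis and the median rank shift of its shared regions, NUP98-HOXD13/Flt3-ITD minus NUP98-HOXD13, in percentile points on the vertical axis. Chromosome 11 is highest at 2.72 and chromosome 3 lowest at −1.19, and chromosome 7, with the most genes per Mb, lies below 0.

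The shifted regions were then read in pairs that share no sample with this comparison. The regions higher in NUP98-HOXD13/Flt3-ITD had a median shift of 5.08 points in set 2 Flt3-ITD against set 2 wild type, with 61.1% above 0, where all shared regions had a median of −0.42 and 47.4% above 0. In set 1 Flt3-ITD/Runx1-het against set 1 Runx1-het it was 4.30 points and 60.9%, beside −0.166 points and 48.7% for all. In set 1 Flt3-ITD against set 1 wild type it was 1.98 points and 54.9%, beside −0.252 points and 47.8%. The regions lower in NUP98-HOXD13/Flt3-ITD had −3.45, −5.63 and −0.306 points in these pairs. Most shifted regions thus did not pass 25 points elsewhere: 14.7% of the higher ones did so upward in set 2, where 4.31% of all these shared regions did. Set 2 wild type against set 1 wild type gave −1.94 points for the higher and 4.6 points for the lower regions, and this pair shares a list with both Flt3-ITD pairs that use a wild type.

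By −log10 p, STAT5 targets were the gene list with the highest share of regions ranked higher in NUP98-HOXD13/Flt3-ITD, and by fold enrichment granulocyte-monocyte genes led (8.25%, against 7.46% for STAT5 targets). Of their 134 shared regions, 12 (8.96%) were higher and 1 (0.746%) lower, where all shared regions had 3.26% and 3.6%. The median shift was 3.24 points, beside 0.116 over all shared regions. Among their 182 regions in all, 35 (19.2%) were found only in NUP98-HOXD13/Flt3-ITD and 13 (7.14%) only in NUP98-HOXD13, beside 13.7% and 16.7% of all regions. Presence of the 35 elsewhere did not divide with Flt3-ITD in one direction. Set 1 Flt3-ITD/Runx1-het held 17 and set 1 Runx1-het 18, set 1 Flt3-ITD 21 and set 1 wild type 10. Set 2 Flt3-ITD, the shortest list, held 9 and set 2 wild type 16. Of the 13, these lists held 6, 7, 8, 6, 3 and 6, in the same order. Of the 19 list members with a region, 16 had a median shift above 0 and 9 held at least 1 region past the threshold upward. The shares over all genes were not taken, and members with more regions had more chances to pass. By region, 67.2% of the list's shared regions had a shift above 0, beside 50.8% of all shared regions. The list has 20 members, and Pim2 lies on the X chromosome. In bulk samples, more cells of a type and more accessibility per cell cannot be told apart.

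**Figure D4:**
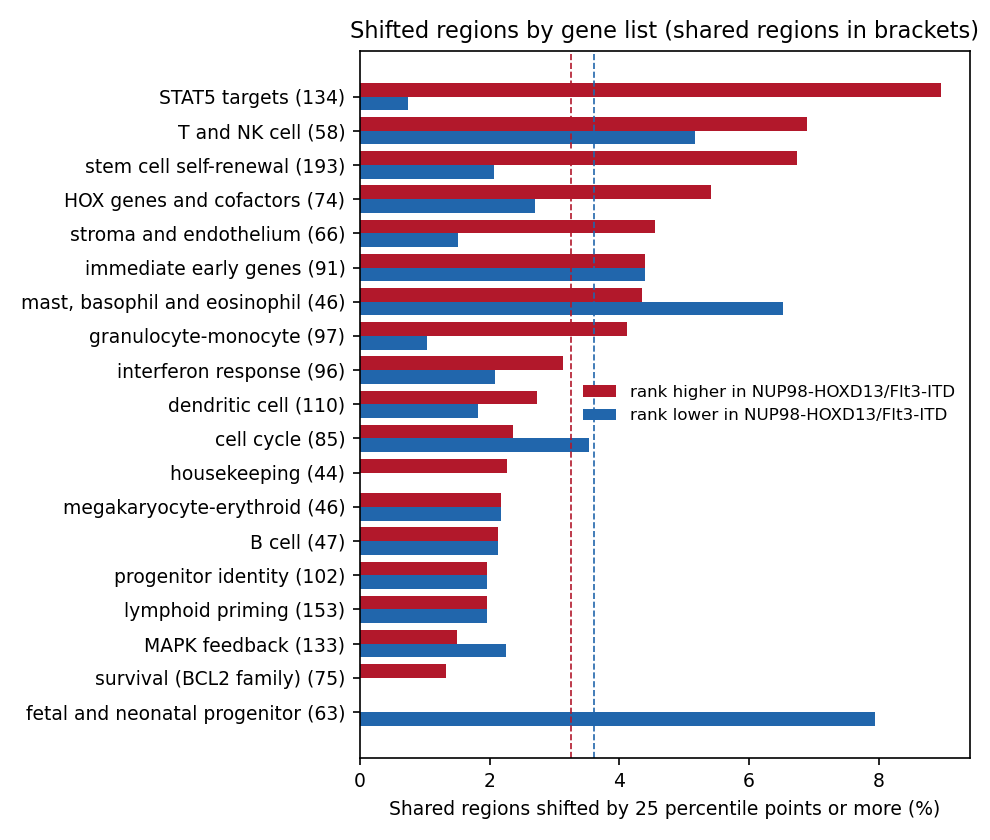
Bars give the percentage of the shared regions of each gene list (number in brackets) that ranked higher (red) or lower (blue) in NUP98-HOXD13/Flt3-ITD by 25 percentile points or more; dashed lines are the percentages over all shared regions, 3.26% and 3.6%. By −log10 p, STAT5 targets lead upward with 8.96% and the fetal and neonatal list downward with 7.94%; by fold enrichment, not plotted, the granulocyte-monocyte list leads upward with 8.25% and the mast, basophil and eosinophil list downward with 6.52%.

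The SOCS feedback inhibitors held 7 of the 12 regions. Socs3 encodes a suppressor of cytokine receptor signalling, and its promoter peak (chromosome 11, 117968674 to 117969726), over the sequence printed above, had −log10 p 118.6 in NUP98-HOXD13/Flt3-ITD and 31.8 in NUP98-HOXD13. The shift was 43.7 points, and 29.9 points by fold enrichment. A region within 10 kb of the gene had 74.5 and 24.5, and one farther off 30.7 and 5.8. All 11 shared regions of Socs3 ranked higher in NUP98-HOXD13/Flt3-ITD, with a median of 20.4 points. Socs2, another inhibitor of this family, had 209.7 in NUP98-HOXD13/Flt3-ITD and 46.5 in NUP98-HOXD13 at the higher-coordinate end of its span (chromosome 10, 95415573 to 95417752). The shift was 41.4 points. The strand of Socs2 was not used, so this end may be its start. That region also covers the promoter of the noncoding gene 5730420D15Rik. A second Socs2 region had 78.6 and 36.9, and its 4 shared regions were all higher.

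Socs1 and Cish passed the threshold in regions outside the gene and not at their promoters. A region 10 to 100 kb from Socs1 (chromosome 16, 10772133 to 10772567) had −log10 p 97.3 in NUP98-HOXD13/Flt3-ITD and 35.0 in NUP98-HOXD13, while the Socs1 promoter had 169.7 and 218.6, a shift of −4.90 points. Cish, the first known member of the family and a STAT5 target, had 45.6 and 17.0 in a region within 10 kb (chromosome 9, 107306048 to 107306558), and 178.8 and 137.2 at its promoter (4.98 points). A further Cish region (chromosome 9, 107307402 to 107308328) was found only in NUP98-HOXD13/Flt3-ITD, at 24.7. Together the 4 genes had 22 shared regions with a median shift of 19.7 points, 7 higher and 0 lower. The 16 other genes of the list had 112, with a median of 2.16 points, 5 higher and 1 lower. This split was made after the values were seen.

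**Figure D5:**
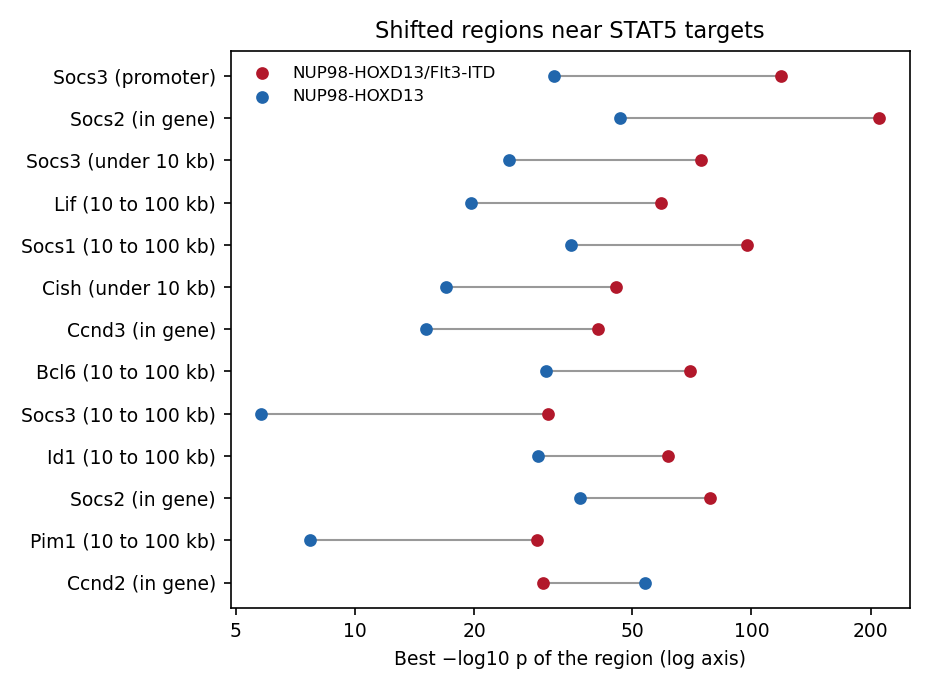
The best −log10 p (log axis) in NUP98-HOXD13/Flt3-ITD (red) and NUP98-HOXD13 (blue) is shown for the 13 shifted regions near STAT5 targets, with the position of each relative to its gene. Red lies to the right of blue in 12 rows, by most in points of rank at the Socs3 promoter (118.6 and 31.8), and to the left at Ccnd2.

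The 5 other higher regions lay in or near Lif, Bcl6, Id1, Ccnd3 and Pim1. Lif, a cytokine of the interleukin 6 family, had −log10 p 59.1 in NUP98-HOXD13/Flt3-ITD and 19.6 in NUP98-HOXD13, and Bcl6, a repressor, had 70.01 and 30.2. The inhibitor of differentiation gene Id1 had 61.4 and 28.9, the G1 cyclin gene Ccnd3 41.0 and 15.1, and the kinase gene Pim1 28.8 and 7.68. These lay inside Ccnd3 and 10 to 100 kb from the other genes. Found only in NUP98-HOXD13/Flt3-ITD were a region within 10 kb of the cytokine gene Osm (41.1), regions near Pim1 (32.5) and in the cell cycle inhibitor gene Cdkn1a (32.1), a promoter peak of Ccnd3 (29.4) and the Bcl6 promoter peak (15.98). Bcl2 and Spi1 did not share the direction, with median shifts of −4.21 and −5.8 points. The single region past the threshold downward was inside Ccnd2, with 29.7 and 53.9.

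The same list in other pairs gave a mixed picture. In set 1 Flt3-ITD/Runx1-het against set 1 Runx1-het the median shift was 2.98 points with 10 regions higher and 1 lower of 144, where 3.71% and 3.52% of all shared regions of that pair passed. Set 2 Flt3-ITD against set 2 wild type had 1.42 points with 14 and 6 of 111, beside 5.2% and 4.98% of all. Set 1 Flt3-ITD against set 1 wild type had −0.0541 points with 4 and 1 of 140, beside 2.58% and 2.02%. The 4 SOCS genes had 3 higher and 0 lower of 23 in the pair beside Runx1-het (median 6.91 points), 6 and 0 of 17 in set 2 (16.4 points), 1 and 0 of 22 in set 1 (6.63 points), and 1 and 1 of 22 in set 2 wild type against set 1 wild type (0.838 points). The Socs2 region at the higher-coordinate end of its span was higher with Flt3-ITD in each of the 3 Flt3-ITD pairs. It shifted by 23.6, 46.6 and 30.2 points beside Runx1-het, in set 2 and in set 1. The Socs3 promoter was higher by 11.3, 47.0 and 4.77 points, but it was also 36.6 points lower in set 2 wild type than in set 1 wild type. Of the 12 regions, 8 of 10, 4 of 7 and 7 of 10 with a value were above 0 beside Runx1-het, in set 2 and in set 1. For all shared regions of the present comparison these shares were 48.7%, 47.4% and 47.8%. In set 2 wild type against set 1 wild type 5 of 10 were above 0. No test of the difference between backgrounds was possible with 1 list per group.

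Ranked by fold enrichment, STAT5 targets had 10 regions higher and 1 lower, 8 of them the same as by −log10 p, but the median shift was 0.396 points, beside −0.111 over all shared regions. With only regions inside or within 10 kb of a member, 6 were higher.

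Immediate early genes, which growth signals switch on within minutes, had 4 regions higher and 4 lower of 91 (4.4% each). All shared regions had 3.26% and 3.6%. The median shift of this list was 3.94 points. By fold enrichment 3 were higher and 3 lower, with a median of −0.124 points. Higher in NUP98-HOXD13/Flt3-ITD was a region near Atf3 (−log10 p 93.1 and 27.9 in NUP98-HOXD13), and lower a region in Jun, a subunit of AP-1 (18.8 and 54.2). MAPK feedback genes, which dampen ERK signalling, had 2 higher (1.5%) and 3 lower (2.26%) of 133 and a median of 0.785 points. Among them the ERK phosphatase gene Dusp5 had 110.1 in NUP98-HOXD13/Flt3-ITD and 31.3 in NUP98-HOXD13, and a region near Phlda1 33.1 and 81.2.

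HOX genes and their cofactors, the genes most tied to the fusion, had 4 regions higher (5.41%) and 2 lower (2.7%) of 74. The shares over all shared regions were 3.26% and 3.6%. A median of 1.62 points turned to −0.498 points by fold enrichment. The Hoxb1 promoter had −log10 p 51.4 in NUP98-HOXD13/Flt3-ITD and 17.5 in NUP98-HOXD13, and a region in Hoxb3 80.1 and 36.0. Of 123 regions, 28 (22.8%) were found only in NUP98-HOXD13/Flt3-ITD and 21 (17.1%) only in NUP98-HOXD13, beside 13.7% and 16.7% of all regions.

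Stem cell self-renewal genes had 13 regions higher (6.74%) and 4 lower (2.07%) of 193, beside 3.26% and 3.6% of all shared regions. The higher ones included 3 at Mllt3, a cofactor that maintains human stem cells, with −log10 p 35.8, 36.8 and 41.0 in NUP98-HOXD13/Flt3-ITD and 13.5, 13.5 and 9.72 in NUP98-HOXD13. Others were near Hlf, a transcription factor of stem cells (106.6 and 36.2), in Msi2, an RNA-binding protein (75.2 and 23.8), in Fgd5 (97.1 and 41.6) and in Erg, an ETS factor (63.5 and 24.8). Mecom had 1 region higher (63.8 and 21.9) and 1 lower (18.1 and 62.5), and a region 10 to 100 kb from Lmo2 that covers the promoter of Gm39895 was lower (38.9 and 109.0). Set 2 Flt3-ITD against set 2 wild type had 6 higher and 18 lower of 159 for this list, and the pair beside Runx1-het 5 and 10 of 210. All shared regions of these pairs had 5.2% higher and 4.98% lower in set 2, and 3.71% and 3.52% beside Runx1-het. Values of this list for set 1 Flt3-ITD against set 1 wild type are not given here. By fold enrichment the count in the present comparison was 11 higher (5.70%) and 9 lower (4.66%), with a median of −0.666 points. All shared regions had 3.94% and 3.67% by fold enrichment. Found only in NUP98-HOXD13/Flt3-ITD were 57 regions (18.0%) and only in NUP98-HOXD13 67 (21.1%), beside 13.7% and 16.7% of all regions. Mllt3 itself had regions in NUP98-HOXD13 alone, the strongest at 49.6.

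Beside 3.26% higher and 3.6% lower of all shared regions, or 3.94% and 3.67% by fold enrichment, 1 list had none higher. Fetal and neonatal progenitor genes had 0 regions higher and 5 lower of 63 (7.94%), with a median of −1.28 points and 0 and 4 by fold enrichment. They were 2 regions in Mrc1 (31.7 and 61.2 at 1, 15.4 and 33.5 at the other), 1 in Hmga2, a chromatin protein of fetal stem cells (16.5 and 36.9), 1 near Sox17, a factor of fetal stem cells and endothelium (37.7 and 81.6), and 1 near Plagl1 (14.1 and 31.1). Mrc1 also had regions found only in NUP98-HOXD13, at 97.7 and 33.5 inside the gene and 14.8 at its promoter. Igf2bp3, an RNA-binding protein of fetal cells, had a promoter peak of 31.6, an inner peak of 30.3 and a distal peak of 38.9 in NUP98-HOXD13/Flt3-ITD alone, and an inner peak of 27.1 in NUP98-HOXD13 alone. Of the list's 103 regions, 18 (17.5%) were found only in NUP98-HOXD13/Flt3-ITD and 22 (21.4%) only in NUP98-HOXD13. Over all regions these shares were 13.7% and 16.7%. The list's 8 shared promoter regions had a median shift of 5.81 points.

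Interferon response genes, which the study's title names, had 3 regions higher (3.13%) and 2 lower (2.08%) of 96. The shares over all shared regions were 3.26% and 3.6%. Each genotype had 12 single-list regions (10%), beside 13.7% and 16.7% of all regions. The median shift of this list was 0.248 points, and −0.946 points by fold enrichment. The oligoadenylate synthetase genes, whose products start RNA decay in infected cells, were singled out after their values were seen. The Oasl1 promoter (41.1) and the Oas1a promoter (34.7) had peaks only in NUP98-HOXD13/Flt3-ITD, the Oasl2 promoter had 49.7 and, in NUP98-HOXD13, 21.4, and the Oas3 promoter, with no shift past the threshold, 62.5 and 51.8. A region within 10 kb of Oasl2 went the other way, at 17.7 and 36.8. The promoter peak of Oas1a was in 1 of the other 6 lists, that of Oasl1 in 3 and that of Oasl2 in 5. Ifi44 had 3 regions in NUP98-HOXD13 alone, the strongest at 45.2, and Tap1, a peptide transporter of antigen presentation, had a region at 92.9 in NUP98-HOXD13/Flt3-ITD and 40.4 in NUP98-HOXD13.

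Over all shared regions 3.26% were higher and 3.6% lower, and 3.94% and 3.67% by fold enrichment. Among lineage lists, granulocyte-monocyte genes had 4 regions higher (4.12%) and 1 lower (1.03%) of 97, with 8 (8.25%) and 4 (4.12%) by fold enrichment. The higher ones included regions near Klf4, a factor of monocyte fate (172.2 in NUP98-HOXD13/Flt3-ITD and 61.2 in NUP98-HOXD13), in Csf2rb, the common beta chain of cytokine receptors (106.2 and 33.5), and near Cebpb, a factor of granulocyte output (64.7 and 31.3). Ctsg, a neutrophil granule protease, had a region within 10 kb only in NUP98-HOXD13/Flt3-ITD (67.1) and a promoter peak only in NUP98-HOXD13 (10.4). Lymphoid priming genes had 3 higher and 3 lower of 153 (1.96% each) and dendritic cell genes 3 and 2 of 110 (2.73% and 1.82%). Megakaryocyte-erythroid genes had 1 and 1 of 46 (2.17% each). Mast, basophil and eosinophil genes had 2 and 3 of 46 (4.35% and 6.52%) and B cell genes 1 and 1 of 47 (2.13% each). T and NK cell genes had 4 and 3 of 58 (6.9% and 5.17%). Stroma and endothelium had 3 and 1 of 66 (4.55% and 1.52%) and cell cycle genes 2 and 3 of 85 (2.35% and 3.53%). BCL2 family genes had 1 and 0 of 75 (1.33% and 0%) and housekeeping genes 1 and 0 of 44 (2.27% and 0%).

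The promoters of progenitor identity genes, such as Kit and Cd34, were open in both genotypes, with 9 of 9 in each list. Members without a promoter window, in this list Ly6a, Cd93 and Angpt1, are left out of all these promoter counts. Of the 102 shared regions of progenitor identity genes, 2 were higher and 2 lower (1.96% each), beside 3.26% and 3.6% of all shared regions. Peaks were present at 3 of 9 B cell promoters in each list (Bank1, Blnk and Cd79a, but not Ebf1 or Pax5). The Bank1 promoter had 273.3 in NUP98-HOXD13/Flt3-ITD and 227.0 in NUP98-HOXD13. T and NK cell promoters had 5 and 4 of 14. Tcf7, Lef1, Gata3 and Lck had peaks in both lists, Tbx21 in NUP98-HOXD13/Flt3-ITD alone, and Cd3e and Cd3g had none. Counted by gene start, 14492 of 31365 promoters in all lay under a shared region. Of 10 megakaryocyte-erythroid promoters 5 had peaks in each list (Tfrc, Zfpm1, Itga2b, Pf4 and Gp9, but not Klf1 or Epor). Outside the promoter windows, shared regions lay inside Ebf1, Pax5, Klf1 (−log10 p 179.1 in NUP98-HOXD13/Flt3-ITD and 131.5 in NUP98-HOXD13) and Epor (124.6 and 173.6). One inside Cd3d, a T cell gene with no promoter peak, had 272.0 and 256.3. Granulocyte-monocyte promoters had 11 of 18 in NUP98-HOXD13/Flt3-ITD and 13 of 18 in NUP98-HOXD13. Stroma and endothelium had 5 and 6 of 9. The part of cell make-up in the shifts was not tested.

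STAT letters were searched in the 250 bases before each of 31365 gene starts, both strands, as a description. They were present in 7.93% of the 164 promoters under a region higher in NUP98-HOXD13/Flt3-ITD and in 8.62% of the 429 under a region found only there. The shares were 3.13% of the 96 under a lower region, 4.89% of the 491 under a region found only in NUP98-HOXD13, 5.51% under shared regions and 7.06% over all starts. The CEBP letters were in 6.71% and 9.56% on the NUP98-HOXD13/Flt3-ITD side, 8.33% and 13.6% on the NUP98-HOXD13 side and 9.66% over all starts. The IRF letters were in 4.88% and 4.9%, 3.13% and 2.65%, and 2.97%, in the same order. The ETS letters were in 10.4% and 6.53%, 6.25% and 7.74%, and 12.2%, beside 21.2% under shared regions.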

How the data were processed

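ATAC-seq peak lists of 2 genotypes, 1 list for 2 samples each, were compared on chromosomes 1 to 19. X and Y were left out. Bowtie2 and MACS2 and the builds mm10 and GRCm38 come from the submitters' processing notes; their versions, any threshold for peaks and any filter on reads were not stated there. Each deposited peak carries a score of unstated meaning (413 to 1000 in both lists), a fold enrichment, which is a ratio, and −log10 values of a p-value and q-value, all from the authors. In the NUP98-HOXD13/Flt3-ITD list 6.65% of peaks, and in the NUP98-HOXD13 list 5.05%, had a q-value over 0.05. Whether the score selected peaks that the 2 samples shared is not known, and if it did, a missing peak may be one on which they disagreed.

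Peaks overlapping by at least 1 bp were merged with Python 3.11.15, numpy 2.4.6 and pandas 2.3.3, tested on simulated data. Ranks are percentiles among shared regions. Genes are the nearest protein-coding span within 100 kb of GRCm38.p6, so exons and introns are not given, and promoters are RefSeq windows of 250 bases before to 50 after a start. Of 338 list genes, 334 were matched. The members and gene lists were chosen with earlier results of these data known. Named regions are the 10 strongest single-list regions per genotype and the 10 largest shifts each way, 1 per gene. Single-list ones had no peak of the other list within 500 bp. The largest shifts had to keep their sign by fold enrichment. They also needed a peak in the strongest 50% of the list where they ranked higher. Up to 4 members per gene list and the genotype genes were added. Not all are printed. Further regions of the lists, genes with several shifted regions, printed promoters and motif letters were chosen after their values were seen. Precision could not be given, since depth and values per sample were not known. Other peak numbers, overlaps, ranks by fold and gene assignments were tried.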

Additional observations from a re-analysis of the deposited data

How the results depend on the processing

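Equal numbers of peaks, a 50% overlap or a 500 bp margin left the counts of single-list, strong and shifted regions within 1.5 times. With the top 40000 peaks of each list, 4173 regions were found only in NUP98-HOXD13/Flt3-ITD and 4606 only in NUP98-HOXD13, and 1159 ranked higher and 1294 lower, with fewer peaks compared. With a −log10 q of at least 10, 9183 regions were found only in NUP98-HOXD13. Ranked by fold enrichment, 292 regions found only in NUP98-HOXD13/Flt3-ITD and 328 found only in NUP98-HOXD13 were strong; the cause was not tested.

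For STAT5 targets within 10 kb, 7 regions were found only in NUP98-HOXD13 and 6 ranked higher, with fewer regions assigned. With each shift centred on its chromosome, chosen after seeing the data, 0 ranked lower and the median was 3.03 points, and by fold enrichment it was 0.396 points (the cause was not tested). Under these alternatives 33 other values did not move. A count moved when it changed beyond 1.5 times. A median moved when it left a binomial interval of the reported median, taken over the list's regions, which are not replicates. The same rules were used for the other gene lists. For the other gene lists, 25 of 90 values moved with only regions within 10 kb, and 1 with shifts centred on the chromosome. Of 123 shifts, those named as largest and all past the threshold near a list gene, 122 passed it with equal numbers. By fold enrichment 94 passed, in the same direction. Those named as largest were picked to keep their sign by fold enrichment, so for them the direction was fixed beforehand. No paired analysis was possible because each genotype had 1 list for both samples, and no sample could be left out.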
